A study of Mus musculus with 15 samples.

Results

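TAM receptors are the receptor tyrosine kinases Tyro3, Axl and Mertk, and their main ligands are the secreted proteins Gas6 and protein S, encoded by Pros1. The Ensembl genes with these 5 symbols were taken from the deposited table, which lists 46078 genes, and all 5 were found and were high enough to be tested. RNA was sequenced from a dissected region of 1 brain hemisphere of 15 mice, 1 library per mouse; the labels leave the region unnamed. The first group was 5 APP-PS1 mice injected intraperitoneally with 0.8 mg per injection of antibody 2.43 against CD8a (anti-CD8a APP-PS1 mice). The second was 5 APP-PS1 mice given 100 µL of PBS (PBS APP-PS1 mice), and the third was 5 wild-type (WT) mice given PBS. Mice were 12 months old and were treated for 4 weeks, with 10 injections of antibody or of PBS. APP-PS1 mice (APP Swedish PS1 dE9) carry a Swedish-mutant amyloid precursor protein made of mouse and human parts and a human presenilin 1 of the mutant form PS1-dE9. Both transgenes are driven in CNS neurons by the prion protein promoter, so the model makes amyloid from neuronal transgenes. CD8a is a co-receptor of cytotoxic T cells, which the antibody is meant to deplete. No library of an isotype antibody was analysed here, so the comparison of anti-CD8a with PBS also compares an antibody with none.

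Gas6 and protein S are bridging proteins. They carry carboxylated glutamates, made by a vitamin K dependent enzyme, that bind phosphatidylserine on the surface of dying cells and of stressed neurites, and their other end binds a TAM receptor on the engulfing cell. In brain, Mertk and Axl are known mainly from microglia, with Mertk also in astrocytes, and Tyro3 mainly from neurons. Activated TAM receptors drive engulfment and dampen inflammatory signalling through the type I interferon receptor and Socs proteins.

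In GRCm38, by the GENCODE M21 annotation, Axl (ENSMUSG00000002602) lies on chromosome 7 from 25757273 to 25788705 on the minus strand, with 5033 merged exon bases. Mertk (ENSMUSG00000014361) lies on chromosome 2 from 128698956 to 128802894 on the plus strand, with 4336 exon bases. Tyro3 (ENSMUSG00000027298) is on the same chromosome and strand from 119797733 to 119818104, with 6198 exon bases. Gas6 (ENSMUSG00000031451) lies on chromosome 8 from 13465374 to 13494490 on the minus strand, with 2548 exon bases. Pros1 (ENSMUSG00000022912) lies on chromosome 16 from 62854307 to 62929346 on the plus strand, with 4088 exon bases. An exon of Gas6 overlaps an exon of Tmem255b on the opposite strand; how strand was set in counting is not given, so the Gas6 count is uncertain by the reads of that overlap.

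The promoter windows of Axl and Pros1 are shown because Pros1 had the smallest p of the 5 genes in PBS APP-PS1 over WT mice, and Axl in anti-CD8a APP-PS1 over WT mice. Each window runs 5′ to 3′ on the gene's own strand from 250 bases before to 50 bases after the RefSeq start, in GRCm38.p6: chr7:25788684-25788983 on the minus strand for Axl and chr16:62854057-62854356 on the plus strand for Pros1. Capitals mark matches, on either strand, to the PU.1 core (GAGGAA), the STAT motif GAS (TTCNNNGAA) and the GC box (GGGCGG).
Axl promoter: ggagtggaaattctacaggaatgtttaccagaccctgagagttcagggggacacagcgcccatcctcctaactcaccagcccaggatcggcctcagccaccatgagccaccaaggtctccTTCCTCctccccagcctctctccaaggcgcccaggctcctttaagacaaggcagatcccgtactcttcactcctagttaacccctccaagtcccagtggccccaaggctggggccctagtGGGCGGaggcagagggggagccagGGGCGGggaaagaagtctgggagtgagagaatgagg
Pros1 promoter: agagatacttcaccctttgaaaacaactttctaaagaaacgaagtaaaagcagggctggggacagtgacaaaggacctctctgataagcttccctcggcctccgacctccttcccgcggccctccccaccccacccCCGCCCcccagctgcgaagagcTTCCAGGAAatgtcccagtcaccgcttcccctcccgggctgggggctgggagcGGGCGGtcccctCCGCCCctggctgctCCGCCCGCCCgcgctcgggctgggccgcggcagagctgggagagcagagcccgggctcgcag
The Axl window held 1 PU.1 core, on the opposite strand at bases 121 to 126, and 2 GC boxes. The Pros1 window held 1 GAS match at bases 159 to 167 and 5 GC boxes, of which the last 2 overlap each other. The GC box was also found in the windows of Mertk (4 matches), Tyro3 (6) and Gas6 (4). Neither the interferon element ISRE (GAAA, any 2 bases, then GAAA again) nor the AP-1 site (TGANTCA) was found in any of the 5 windows. Over the 32851 windows of that length in the RefSeq table, 28.3% held a PU.1 core, 8.3% a GAS match, 35.7% a GC box, 3.44% an ISRE and 7.81% an AP-1 match. A match is a description of letters and does not show that a factor binds there.

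Libraries held 17736524 to 36485809 counts assigned to genes, and each of the 5 genes had at least 503 counts in every library. App, in which reads of the transgene can be counted with those of the mouse gene, was at 2470 to 3150 CPM (counts over library size, with TMM scaling) in anti-CD8a APP-PS1 mice, at 2420 to 3030 CPM in PBS APP-PS1 mice and at 1230 to 1320 CPM in WT mice. T cell markers were at the limit of detection: all 6 were under 0.5 CPM on average in each group, and Cd8a had 53, 42 and 33 summed counts in anti-CD8a APP-PS1, PBS APP-PS1 and WT mice, so depletion could not be read from these libraries. Choroid-rich libraries, with Ttr above 1000 CPM, were 5 in number; Ttr is the leading choroid plexus transcript. They were anti-CD8a replicate 1, APP-PS1 PBS replicates 2 and 5 and WT replicates 3 and 5. APP-PS1 PBS replicate 1 carries a male label and had the female pattern of Xist and Y-linked genes; the labelled sex was kept as a covariate. The labels hold 3 males of 5 in each APP-PS1 group and 1 of 5 in the WT group.

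None of the 5 genes passed an adjusted p of 0.05 in edgeR's quasi-likelihood test in any comparison. Between PBS APP-PS1 and WT mice, 1.03% of the 18974 genes tested passed; between anti-CD8a and PBS APP-PS1 mice 0% passed; and between anti-CD8a APP-PS1 and WT mice 1.94% passed. Of all genes, 0.938% passed as higher in the first comparison and 1.76% in the third. At an unadjusted p under 0.05 stood 3 of the 5 genes in the first comparison (11.5% of all genes), 1 of 5 in the second (13.3%) and 3 of 5 in the third (12.1%). In DESeq2, Pros1 passed in the first comparison (adjusted p = 0.00356) and Axl in the third (adjusted p = 0.0115), where DESeq2 called 1.94% and 2.81% of genes; it called none of the 5 in the second, where it called 1.04%. With limma-voom none of the 5 passed in any comparison. Per-mouse ranges did not overlap for 1 of the 5 genes, Axl, in each comparison with WT mice (2.89% of all genes in the first, 1.83% with APP-PS1 mice higher, and 3.04% in the third, 2.16% with APP-PS1 mice higher), and for 0 of 5 between the APP-PS1 groups (1.8%). The comparisons with WT mice share the WT libraries, and the first and the second share the PBS APP-PS1 libraries.

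Axl, a receptor activated by Gas6 and known to be raised on microglia in inflamed tissue, was highest in the APP-PS1 mice. Its levels were 63.4, 58.1, 87.6, 72.5 and 62.6 CPM in anti-CD8a APP-PS1 mice (replicates 1 to 5), 62, 57.8, 69.3, 70.1 and 61.4 CPM in PBS APP-PS1 mice, and 54.8, 55.5, 50.1, 52.6 and 55.5 CPM in WT mice. Every APP-PS1 library was above every WT library, and the APP-PS1 groups overlapped each other. Means were 68.8 ± 11.7, 64.1 ± 5.33 and 53.7 ± 2.36 CPM in anti-CD8a APP-PS1, PBS APP-PS1 and WT mice (SD, n = 5 each). The log2 fold change of PBS APP-PS1 over WT mice was 0.28 (SE 0.10, 95% interval 0.08 to 0.48, adjusted p = 0.267 in edgeR). For anti-CD8a APP-PS1 over WT mice it was 0.38 (SE 0.10, interval 0.18 to 0.58, adjusted p = 0.0556 in edgeR). Between anti-CD8a and PBS APP-PS1 mice the log2 fold change of Axl was 0.10 (SE 0.09, interval -0.09 to 0.29, adjusted p = 0.639 in edgeR). Anti-CD8a replicate 3 held the highest Axl level of all libraries; without it the log2 fold change over WT mice was 0.23. These are whole-tissue libraries, in which more cells of a type and more RNA per cell cannot be told apart.

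Microglia markers were also higher in the APP-PS1 mice. The summed level of 7 homeostatic microglia markers was 507 to 877 CPM in anti-CD8a APP-PS1 mice, 512 to 642 CPM in PBS APP-PS1 mice and 360 to 426 CPM in WT mice, with none of the 7 at 0. Of these 7 markers, 4 rose in PBS APP-PS1 mice and 5 in anti-CD8a APP-PS1 mice, both against WT mice. For 10 markers of disease-associated microglia the sums were 682 to 1490, 777 to 1150 and 428 to 637 CPM in anti-CD8a APP-PS1, PBS APP-PS1 and WT mice, and 6 and 7 of the 10 rose in PBS and anti-CD8a APP-PS1 mice against WT mice. Ctsd made most of these sums, with means of 603, 596 and 339 CPM in the same order of groups. The log2 fold changes of the 10 ran from 0.35 (Lpl) to 6.17 (Cst7) in PBS APP-PS1 over WT mice. No marker of either list passed between the APP-PS1 groups. The ratio of Axl to the homeostatic markers is given together with that of Mertk.

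Mertk, which binds both Gas6 and protein S and mediates the uptake of dying cells, varied most among the anti-CD8a mice. Its levels were 54, 83.2, 70.9, 47.3 and 50.3 CPM in anti-CD8a APP-PS1 mice, 69.8, 70.4, 74.2, 89.8 and 59.1 CPM in PBS APP-PS1 mice, and 79.4, 71.4, 65.7, 73.5 and 54.2 CPM in WT mice. Anti-CD8a replicates 1, 4 and 5 were below every PBS APP-PS1 library, while anti-CD8a replicates 2 and 3 lay within the range of the PBS group. Means were 61.2 ± 15.3, 72.7 ± 11.1 and 68.8 ± 9.52 CPM in anti-CD8a APP-PS1, PBS APP-PS1 and WT mice (SD, n = 5 each). The log2 fold change of anti-CD8a over PBS APP-PS1 mice was -0.28 (SE 0.11, interval -0.52 to -0.05, unadjusted p = 0.0216, adjusted p = 0.319 in edgeR). Over WT mice, Mertk had log2 fold changes of 0.24 in PBS APP-PS1 mice (SE 0.12, adjusted p = 0.457 in edgeR) and of -0.04 in anti-CD8a APP-PS1 mice (SE 0.12, adjusted p = 0.927). Without APP-PS1 PBS replicate 5, 1 of the choroid-rich libraries, the value for PBS APP-PS1 over WT mice was 0.41 and passed (adjusted p = 0.0181 in edgeR); without all 5 choroid-rich libraries it was 0.41 (adjusted p = 0.229).

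The anti-CD8a mice with low Mertk were the 3 labelled male. Among labelled males alone the log2 fold change of anti-CD8a over PBS APP-PS1 mice was -0.51 (adjusted p = 0.301 in edgeR), and among labelled females alone it was 0.03 (adjusted p = 0.974); the difference between the sexes was not tested, and the labelled males include APP-PS1 PBS replicate 1. Over all 15 libraries Mertk averaged 60 CPM in 7 labelled males and 74.1 CPM in 8 labelled females. The sex term of the model was -0.36 on the log2 scale, male minus female (SE 0.10, unadjusted p = 0.00206, adjusted p = 0.62 in edgeR), and 0.0316% of all genes passed for it. With sex assigned from Xist and the Y-linked genes the term was -0.34 (unadjusted p = 0.00399, adjusted p = 0.363 in edgeR), where 0.0685% of genes passed. With that sex as covariate, the Mertk difference of anti-CD8a over PBS APP-PS1 mice was -0.21 (adjusted p = 0.371 in edgeR). This look at the sex term was chosen after the Mertk values were seen. The Mertk difference between PBS APP-PS1 and WT mice was 0.24 with labelled sex as covariate, 0.16 with sex assigned from the genes (adjusted p = 0.605 in edgeR) and 0.08 with no sex covariate (adjusted p = 0.865). For the other 4 genes the sex term had an unadjusted p of 0.195 or more by the label.

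Tyro3, the receptor most abundant in neurons, was lower in most APP-PS1 mice than in WT mice, within overlapping ranges. Its levels were 100, 85.5, 89.4, 84.2 and 90.8 CPM in anti-CD8a APP-PS1 mice, 95.8, 94.1, 83.1, 82.9 and 74.1 CPM in PBS APP-PS1 mice, and 82.8, 106, 114, 97.7 and 97.8 CPM in WT mice. All 5 PBS APP-PS1 libraries lay below 4 of the 5 WT libraries, and WT replicate 1 lay among them. The log2 fold change over WT mice was -0.25 in PBS APP-PS1 mice (SE 0.09, interval -0.44 to -0.07, unadjusted p = 0.00937, adjusted p = 0.257 in edgeR). In anti-CD8a APP-PS1 mice it was -0.19 over WT mice (SE 0.08, interval -0.37 to -0.01, adjusted p = 0.389 in edgeR). Anti-CD8a and PBS APP-PS1 mice differed by 0.07 (SE 0.08, interval -0.10 to 0.24, adjusted p = 0.731 in edgeR). The sum of 7 neuron markers was 5240 to 5830 CPM in anti-CD8a APP-PS1, 5210 to 5740 in PBS APP-PS1 and 5370 to 5850 CPM in WT mice, and none of the 7 passed. The sum of 8 hippocampal neuron markers was 605 to 751 CPM in anti-CD8a APP-PS1, 535 to 594 in PBS APP-PS1 and 586 to 689 CPM in WT mice. Their part in the Tyro3 values was not tested.

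**Figure D1:**
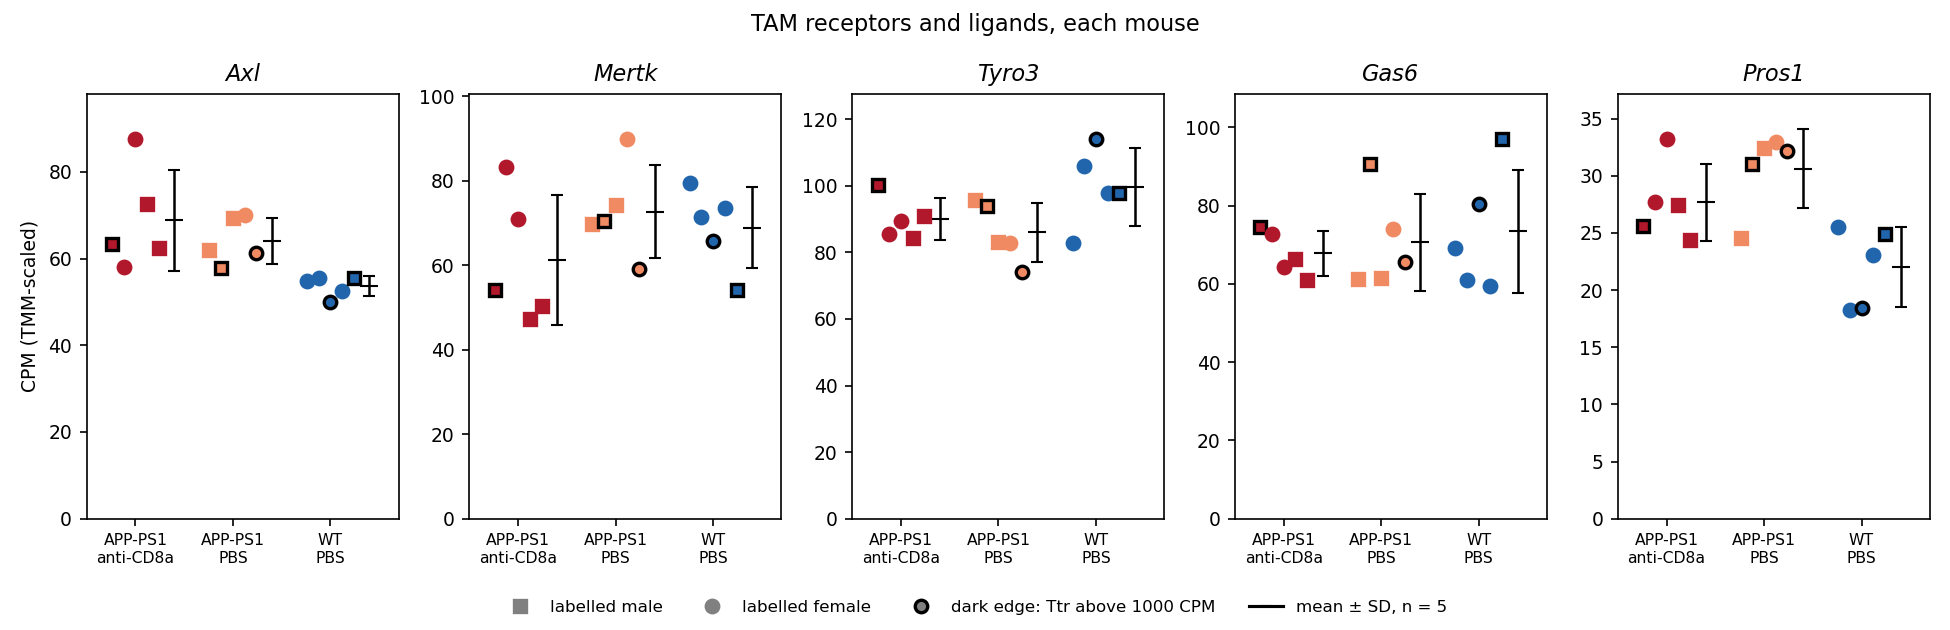
Levels of the 5 genes in each mouse, in CPM with TMM scaling; each point is 1 mouse and each line a group mean with its SD (n = 5). The Axl points of both APP-PS1 groups lie above all WT points, 4 of 5 points of each APP-PS1 group lie above all WT points for Pros1, and the groups of the other 3 genes overlap.

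Gas6, a ligand of all 3 receptors, did not separate the groups. Its levels were 74.6, 72.8, 64.3, 66.3 and 61 CPM in anti-CD8a APP-PS1 mice, 61.3, 90.7, 61.5, 74.2 and 65.5 CPM in PBS APP-PS1 mice, and 69.1, 60.9, 80.5, 59.5 and 97 CPM in WT mice. The highest libraries were WT replicate 5, APP-PS1 PBS replicate 2 and WT replicate 3, and anti-CD8a replicate 1 was highest in its group. The log2 fold changes were -0.10 for PBS APP-PS1 over WT mice (interval -0.38 to 0.17, adjusted p = 0.807 in edgeR), -0.06 for anti-CD8a over PBS APP-PS1 mice (interval -0.33 to 0.21, adjusted p = 0.86) and -0.16 for anti-CD8a APP-PS1 over WT mice (interval -0.44 to 0.11, adjusted p = 0.679). The 4 libraries just named were those with the highest Ttr, at 6460 CPM (WT replicate 5), 4120 CPM (APP-PS1 PBS replicate 2), 2210 CPM (WT replicate 3) and 1860 CPM (anti-CD8a replicate 1); the fifth choroid-rich library, APP-PS1 PBS replicate 5, had 1650 CPM of Ttr and 65.5 CPM of Gas6. Without the 5 choroid-rich libraries the log2 fold changes over WT mice were 0.17 in PBS and 0.15 in anti-CD8a APP-PS1 mice (adjusted p = 1 and 0.666 in edgeR), so the sign turned in both. Choroid plexus markers summed to 53.7 to 2050 CPM in anti-CD8a APP-PS1, 67.3 to 4490 in PBS APP-PS1 and 68.2 to 7040 CPM in WT mice; their part in the Gas6 values was not tested.

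Pros1, which encodes protein S, the ligand of Mertk and Tyro3 and an anticoagulant cofactor in blood, had the largest estimate of the 5 genes in PBS APP-PS1 over WT mice. Its levels were 25.6, 27.7, 33.2, 27.5 and 24.4 CPM in anti-CD8a APP-PS1 mice, 24.5, 31, 32.4, 32.9 and 32.2 CPM in PBS APP-PS1 mice, and 25.5, 18.2, 18.4, 23 and 24.9 CPM in WT mice. In each APP-PS1 group 4 of 5 libraries were above every WT library; PBS replicate 1 and anti-CD8a replicate 5 were within the WT range. Means were 27.7 ± 3.38, 30.6 ± 3.46 and 22 ± 3.52 CPM in anti-CD8a APP-PS1, PBS APP-PS1 and WT mice (SD, n = 5 each). The log2 fold change of PBS APP-PS1 over WT mice was 0.50 (SE 0.12, interval 0.26 to 0.75, unadjusted p = 0.000534, adjusted p = 0.0517 in edgeR). This value lies at the threshold: it was 0.0258 without APP-PS1 PBS replicate 1, 0.0449 without WT replicate 1 and 0.015 without WT replicate 5, and up to 0.145 without other libraries. The log2 fold change of anti-CD8a APP-PS1 over WT mice was 0.36 (SE 0.12, interval 0.11 to 0.60, adjusted p = 0.171 in edgeR). Anti-CD8a over PBS APP-PS1 mice stood at -0.15 (SE 0.11, interval -0.38 to 0.09, adjusted p = 0.564 in edgeR). Astrocyte markers, 7 in all, summed to 7150 to 9120 CPM in anti-CD8a APP-PS1, 7030 to 8060 in PBS APP-PS1 and 6260 to 6990 CPM in WT mice. Slc1a2 made most of that sum, with means of 5370, 5160 and 4800 CPM in the same order of groups, and did not pass. Of the 7 markers, 2 rose in PBS APP-PS1 mice (Gfap and Aqp4) and 1 in anti-CD8a APP-PS1 mice (Gfap), both against WT mice. The markers that did not pass had log2 fold changes from -0.02 (Sox9) to 0.17 (Slc1a2) in PBS APP-PS1 over WT mice. Endothelial markers summed to 217 to 269, 205 to 261 and 202 to 241 CPM in anti-CD8a APP-PS1, PBS APP-PS1 and WT mice, and none passed. Microglia markers, given above, had larger median log2 fold changes in PBS APP-PS1 over WT mice, at 0.57 for the homeostatic and 1.32 for the disease-associated list. The medians were 0.16 for the astrocyte and 0.11 for the endothelial list. The part of these cell types in the Pros1 difference was not tested.

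**Figure D2:**
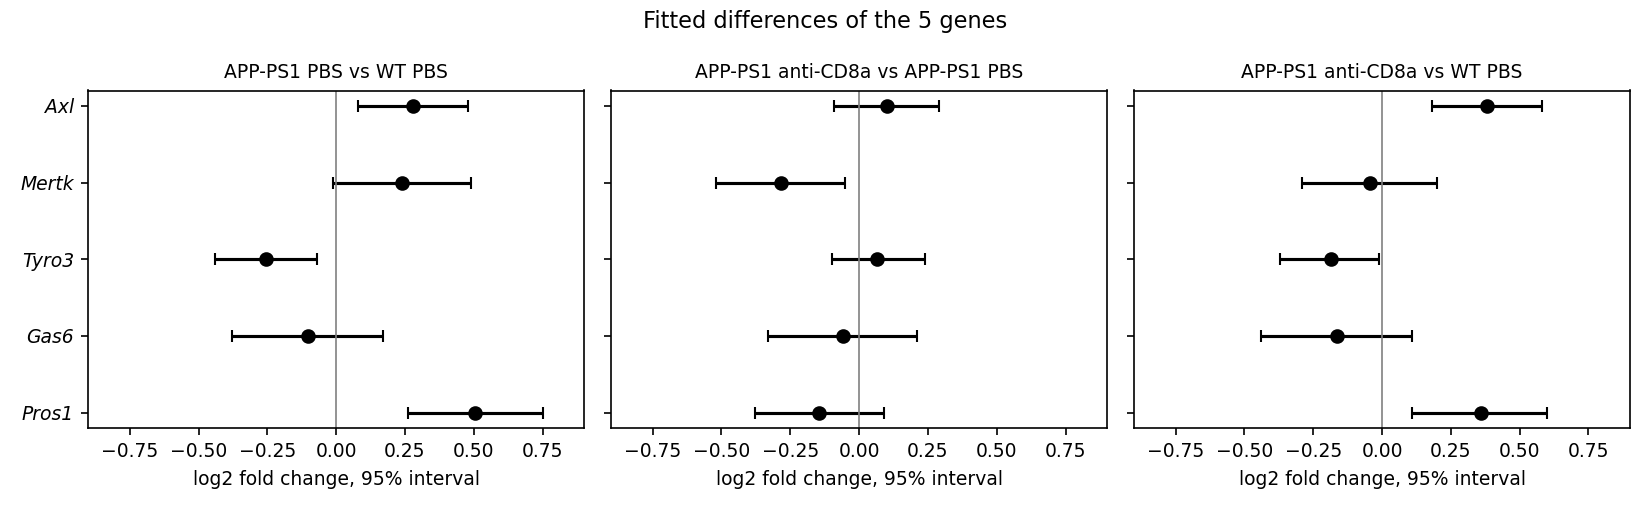
Log2 fold change of each of the 5 genes in the 3 comparisons, with 95% intervals from the edgeR model (15 libraries, labelled sex as covariate). Pros1 and Axl have intervals above 0 in both comparisons with WT mice, Tyro3 has intervals below 0 in both, and Mertk has its interval below 0 only between anti-CD8a and PBS APP-PS1 mice; no difference passed the adjusted threshold.

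Scaled to exon length, Gas6 had the highest level of the 5 genes and Pros1 the lowest. These levels are approximate, because Bowtie2 does not align across introns, and the Gas6 count is uncertain by its overlap with Tmem255b. In CPM per kilobase of merged exon, Gas6 was at 26.6 ± 2.27 in anti-CD8a APP-PS1 mice, 27.7 ± 4.85 in PBS APP-PS1 mice and 28.8 ± 6.14 in WT mice (SD, n = 5 each). Pros1 was at 6.77 ± 0.827, 7.49 ± 0.847 and 5.39 ± 0.86 CPM per kilobase in anti-CD8a APP-PS1, PBS APP-PS1 and WT mice, below each receptor. The receptors lay between the ligands and close to each other. Tyro3 was at 14.5 ± 1.02, 13.9 ± 1.45 and 16.1 ± 1.87, Mertk at 14.1 ± 3.54, 16.8 ± 2.56 and 15.9 ± 2.2, and Axl at 13.7 ± 2.33, 12.7 ± 1.06 and 10.7 ± 0.469 CPM per kilobase, each in anti-CD8a APP-PS1, PBS APP-PS1 and WT mice in turn. In the anti-CD8a mice the ranges of the 3 receptors overlapped, from 10.9 to 19.2 CPM per kilobase in all. In WT mice Axl, at 9.94 to 11 CPM per kilobase, was below the ranges of Mertk (12.5 to 18.3) and Tyro3 (13.4 to 18.4), which overlapped each other.

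The receptors summed to near the same level in all groups, at 42.3 ± 4.04 in anti-CD8a APP-PS1, 43.4 ± 3.67 in PBS APP-PS1 and 42.6 ± 2 CPM per kilobase in WT mice (SD, n = 5 each). Within that sum the share of Axl was 32.4 ± 4.49% in anti-CD8a APP-PS1, 29.4 ± 2.23% in PBS APP-PS1 and 25.1 ± 1.93% in WT mice. The ratio of Axl to Mertk was 1.01 ± 0.26, 0.769 ± 0.0869 and 0.684 ± 0.115 in the same order of groups. Of the 2 ligands together, Gas6 made 79.7 ± 2.5% in anti-CD8a APP-PS1, 78.5 ± 2.82% in PBS APP-PS1 and 84 ± 3.03% in WT mice. These sums, shares and ratios rest on the same approximate levels and are descriptions, with no test.

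**Figure D3:**
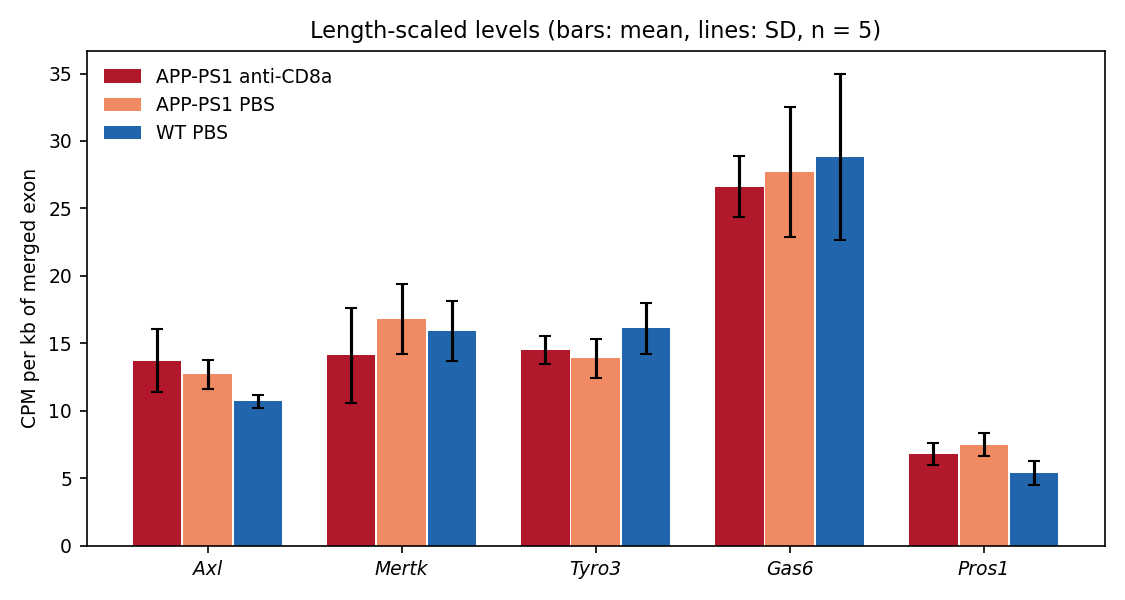
Levels per kilobase of merged exon; bars are means and lines SD over 5 mice, with anti-CD8a APP-PS1, PBS APP-PS1 and WT mice from left to right. Gas6 is highest at 26.6 to 28.8 CPM per kilobase, Pros1 lowest at 5.39 to 7.49, and the receptors lie between them.

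Set against 7 homeostatic microglia markers, neither Axl nor Mertk was higher in the APP-PS1 mice. The ratio was taken per mouse, as log2(CPM + 0.5) of the gene minus the mean of the same quantity over the 7 markers. For Axl it was 0.15, -0.17, -0.09, 0.18 and 0.05 in anti-CD8a APP-PS1 mice, 0.02, 0.07, 0.23, 0.04 and -0.02 in PBS APP-PS1 mice and 0.23, 0.21, 0.24, 0.06 and 0.28 in WT mice. The groups overlapped, with 4 of 5 WT mice at 0.21 or above. The mean difference in this Axl ratio was -0.13 between PBS APP-PS1 and WT mice (SE 0.06, exact permutation p = 0.0556, adjusted over 6 tests 0.0667). It was -0.18 between anti-CD8a APP-PS1 and WT mice (SE 0.08, exact permutation p = 0.0476, adjusted 0.0667) and -0.04 between anti-CD8a and PBS APP-PS1 mice (SE 0.08, exact permutation p = 0.587, adjusted 0.587).

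For Mertk the ratio was -0.07, 0.35, -0.39, -0.43 and -0.26 in anti-CD8a APP-PS1 mice, 0.19, 0.35, 0.33, 0.40 and -0.07 in PBS APP-PS1 mice and 0.76, 0.57, 0.63, 0.54 and 0.24 in WT mice. It was lowest on average in the anti-CD8a mice and highest in the WT mice, and each pair of groups overlapped. The Mertk ratio differed by -0.31 between PBS APP-PS1 and WT mice (SE 0.12, exact permutation p = 0.0317), by -0.40 between anti-CD8a and PBS APP-PS1 mice (SE 0.17, exact permutation p = 0.0476) and by -0.71 between anti-CD8a APP-PS1 and WT mice (SE 0.17, exact permutation p = 0.0159), all 3 with an adjusted p of 0.0667. With 5 mice against 5 the smallest two-sided p is 0.00794. These permutations took no account of sex, whose labels differ between the groups (3, 3 and 1 males of 5 in anti-CD8a APP-PS1, PBS APP-PS1 and WT mice); WT replicate 5, labelled male, had the lowest Mertk ratio of the WT mice at 0.24. Of the 7 markers in the denominator, 4 and 5 rose in PBS and anti-CD8a APP-PS1 mice against WT mice, as given above.

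**Figure D4:**
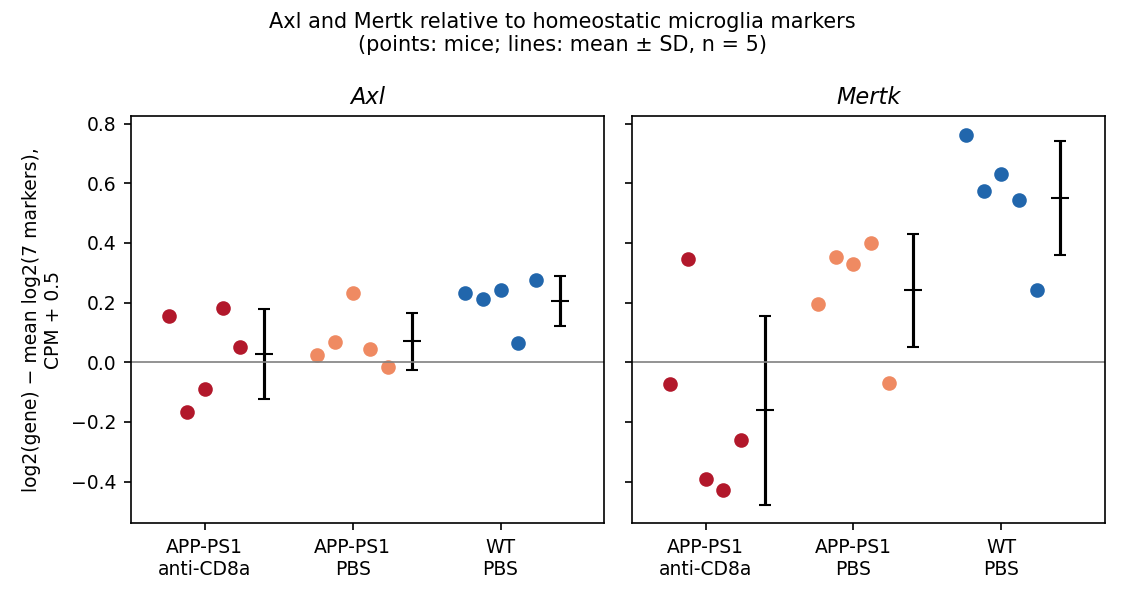
Log2 ratio of Axl and of Mertk to the mean of 7 homeostatic microglia markers in each mouse (points, 5 per group; lines are mean ± SD). For Mertk the means are -0.16 in anti-CD8a APP-PS1, 0.24 in PBS APP-PS1 and 0.55 in WT mice, and for Axl 0.03, 0.07 and 0.21.

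Among the 12162 genes with a mean of at least 5 CPM, those most like Axl over the 15 libraries in log2(CPM + 0.5) were Mlxipl (Pearson r = 0.940), Aim2 (0.925), which encodes a sensor of cytosolic DNA, and Pld4 (0.917). Those most like Mertk were Gpt2 (0.950), Pnpla7 (0.947) and Hip1 (0.912). For Tyro3 they were Fam43b (0.858), Rps6ka2 (0.856) and Rara (0.829), a lower likeness than for the other 4 genes. For Gas6 they included Aldh2 (0.930) and Bcar3 (0.929), and for Pros1 they were Vwa5a (0.950), Msn (0.924) and Ctsh (0.919). In deviations from the group means r stayed between 0.783 and 0.960 for these genes. Among the 5 genes themselves, Tyro3 and Pros1 ran opposite to each other (r = -0.80, and -0.68 in deviations), and Axl and Pros1 ran together (0.69, and 0.50 in deviations). The points share libraries, depth and cell composition, and these values are descriptions with no test.

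Other genes of the pathway were described by lists, with medians to be read beside those of all genes, which were -0.0105, 0.0151 and -0.00322 in the first, the second and the third comparison on the log2 scale. No listed gene passed lower in any comparison, and none passed in either direction between anti-CD8a and PBS APP-PS1 mice in edgeR. Those that passed against WT mice came from 3 of the 9 lists and included Havcr2, Itgb3, Cd300lf, Vav1 and Stat2.

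Of the 13 tested among 16 other phosphatidylserine receptors and bridging proteins, 2 rose in PBS APP-PS1 mice over WT mice (list median 0.15) and 3 in anti-CD8a APP-PS1 mice over WT mice (median 0.21). Havcr2, which encodes the receptor Tim-3, was at 8.61 ± 1.84 CPM in PBS APP-PS1 and 4.91 ± 0.187 CPM in WT mice (SD, n = 5 each). The difference was 0.94 on the log2 scale, with an SE of 0.14 and an adjusted p of 0.00247 in edgeR. In anti-CD8a APP-PS1 mice Havcr2 was at 7.18 ± 1.81 CPM, 0.66 over WT mice (SE 0.14, adjusted p = 0.0188). Itgb3, the β3 integrin subunit that binds phosphatidylserine through the bridging protein Mfge8, was at 4.98 ± 1.3 in anti-CD8a APP-PS1, 4.96 ± 0.691 in PBS APP-PS1 and 2.85 ± 0.545 CPM in WT mice, with a log2 fold change of 0.82 in both comparisons with WT mice (adjusted p = 0.0209 for anti-CD8a and 0.0358 for PBS APP-PS1 mice in edgeR). Cd300lf, an inhibitory receptor for phospholipids, was low, at 0.910 ± 0.212 CPM in anti-CD8a APP-PS1, 0.914 ± 0.241 CPM in PBS APP-PS1 and 0.508 ± 0.212 CPM in WT mice. Its log2 fold change over WT mice was 1.09 in anti-CD8a APP-PS1 mice (SE 0.26, adjusted p = 0.0433 in edgeR) and as large in PBS APP-PS1 mice, where it missed the threshold (1.13, SE 0.27, adjusted p = 0.0642 in edgeR and 0.0242 in DESeq2). Between anti-CD8a and PBS APP-PS1 mice the list median was 0.01, and the smallest p values were those of Adgrb1 (0.20, adjusted p = 0.345 in edgeR) and Havcr2 (-0.28, adjusted p = 0.374).

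Of 15 engulfment signalling genes, 1 rose in each comparison with WT mice. This was Vav1, an exchange factor for Rac in blood cells, at 7.79 ± 2.21 in anti-CD8a APP-PS1, 6.59 ± 0.757 in PBS APP-PS1 and 4.37 ± 0.276 CPM in WT mice. Its log2 fold change was 0.69 in PBS APP-PS1 over WT mice (SE 0.14, adjusted p = 0.0195 in edgeR) and 0.91 in anti-CD8a APP-PS1 over WT mice (SE 0.14, adjusted p = 0.00143). The list medians were 0.06, -0.01 and -0.02 in the first, the second and the third comparison. Pik3r1, a regulatory subunit of PI3 kinase, was at 153 ± 6.55 CPM in anti-CD8a and 169 ± 4.59 CPM in PBS APP-PS1 mice (-0.14, SE 0.04, adjusted p = 0.229 in edgeR and 0.0239 in DESeq2).

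Of the 9 tested among 10 genes of the interferon receptor and Socs feedback, 0 passed in PBS APP-PS1 over WT mice. Stat2, a transcription factor downstream of interferon receptors, was just past the threshold in anti-CD8a APP-PS1 over WT mice, a call that most alternatives did not keep. It was at 42.4 ± 6.07 CPM in anti-CD8a APP-PS1 and 34.8 ± 2.43 CPM in WT mice (log2 fold change 0.32, with an SE of 0.08 and an adjusted p of 0.0459 in edgeR). The list medians were 0.06, 0.03 and 0.09 in the 3 comparisons in order.

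Of these calls in anti-CD8a APP-PS1 over WT mice, that of Vav1 was kept without each of the 15 libraries in turn (adjusted p up to 0.00536). Havcr2 lost its call without anti-CD8a replicate 3 (adjusted p = 0.159) and without WT replicate 3 (0.0544). Itgb3 kept its call in 10 of 15 and lost it without anti-CD8a replicate 3 (0.157) or any of WT replicates 1 to 4 (up to 0.0587). Cd300lf and Stat2 each kept their call in only 4 of 15. Those 4 left out APP-PS1 PBS replicate 1, 2 or 5 or WT replicate 4 for Cd300lf, and anti-CD8a replicate 2, APP-PS1 PBS replicate 1 or 5 or WT replicate 4 for Stat2. Without anti-CD8a replicate 3 the adjusted p was 0.208 for Cd300lf and 0.288 for Stat2. That library had the highest Axl level and, at 877 CPM, the highest sum of homeostatic microglia markers.

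With no sex covariate Havcr2 (adjusted p = 0.126 in edgeR), Cd300lf (0.209) and Stat2 (0.0978) lost their calls over WT mice in the anti-CD8a group. Over all alternatives of tool, scaling, filter, covariate and subset that gave a value, Stat2 kept its call in 6 of 14, Cd300lf in 7 of 13, Havcr2 and Itgb3 in 12 of 14 and Vav1 in 13 of 14. None of the calls over WT mice was kept in the animal number series 85 alone, which holds fewer mice. Stat2 was lost with DESeq2 size factors (0.0503), and both were lost with the animal number series as covariate (0.0608 for Stat2 and 0.0603 for Cd300lf) and without the choroid-rich libraries (0.292 and 0.296). Between PBS APP-PS1 and WT mice, Havcr2 kept its call without each library in turn. Vav1 kept it in 13 of 15, losing it without APP-PS1 PBS replicate 4 (adjusted p = 0.0563 in edgeR) or WT replicate 4 (0.0522), and lost it with no sex covariate (0.101), in labelled females alone (0.146) and in series 83 alone (0.102). Itgb3 kept it in 6 of 15, those without anti-CD8a replicates 1 to 4, APP-PS1 PBS replicate 2 or WT replicate 5. The microglia markers given above moved with these genes, and their part in these differences was not tested.

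No gene passed in edgeR in the other 6 lists. For 12 scramblases and flippases, which move phosphatidylserine across the membrane, the median was 0.08, -0.04 and 0.03 in the first, the second and the third comparison, and Tmem30a, the flippase chaperone, was at 586 ± 26.6 in anti-CD8a and 650 ± 57.5 CPM in PBS APP-PS1 mice (-0.15, adjusted p = 0.338 in edgeR). For 4 genes of vitamin K dependent carboxylation the medians were 0.04, 0.01 and 0.03. The 2 tested of 3 other Mertk or Tyro3 ligands, Tub and Lgals3, had adjusted p of 0.417 or more in each comparison. For 5 sheddases and regulators, which release receptor ectodomains, the medians were 0.02, -0.02 and 0.14; Timp3, an inhibitor of sheddases, was at 93.4 ± 14.7 in anti-CD8a and 120 ± 23.1 CPM in PBS APP-PS1 mice (-0.36, SE 0.14, adjusted p = 0.323 in edgeR). For 7 genes of the LXR pathway, which in mouse macrophages raises Mertk, the medians were -0.05, 0.08 and -0.00, and Abca1, a cholesterol exporter, had a log2 fold change of 0.29 for anti-CD8a APP-PS1 over WT mice (adjusted p = 0.0631 in edgeR and 0.0234 in DESeq2). The 6 tested of 9 genes of the protein C anticoagulant system, in which protein S is a cofactor, had a median of 0.32 between PBS APP-PS1 and WT mice with 6 of 6 estimates above 0, and of -0.23 between anti-CD8a and PBS APP-PS1 mice with 6 of 6 below 0. These 2 comparisons share the PBS APP-PS1 libraries. Between anti-CD8a APP-PS1 and WT mice the median was 0.00, with 3 estimates above and 3 below 0. Of these genes Procr and C4bp were low, with group means of 0.491 to 0.794 and 0.999 to 1.25 CPM. Markers of border macrophages and of mural cells and fibroblasts had medians of the same signs in the first and the second comparison, as did cerebellar neuron markers. For the 5 cerebellar neuron markers tested the medians were 0.34 (3 of 5 estimates above 0) and -0.84 (5 of 5 below 0). For 7 border macrophage markers the medians were 0.32 (7 of 7 estimates above 0) and -0.59 (5 of 7 below 0), and their sums were 9 to 21.5 CPM in anti-CD8a APP-PS1, 10.6 to 32.2 in PBS APP-PS1 and 10.9 to 27.5 CPM in WT mice. For 8 markers of mural cells and fibroblasts the medians were 0.13 (7 of 8 above 0) and -0.46 (6 of 8 below 0), with sums of 223 to 306 CPM in anti-CD8a APP-PS1, 260 to 388 in PBS APP-PS1 and 273 to 351 CPM in WT mice. Dcn, the fibroblast proteoglycan decorin, was at 40.2 ± 17.8 CPM in anti-CD8a and 85.2 ± 14.3 CPM in PBS APP-PS1 mice (-1.10, adjusted p = 0.223 in edgeR and 0.0496 in DESeq2). Pdgfrb, of the same list, went the other way, at 26.1 ± 0.889 CPM in anti-CD8a and 22.3 ± 1.43 CPM in PBS APP-PS1 mice (0.23, adjusted p = 0.223 in edgeR and 0.0594 in DESeq2). In the third comparison, where the protein C median was 0.00, the border macrophage median was -0.27 (5 of 7 estimates below 0). The mural cell and fibroblast median was -0.17 there (6 of 8 below 0), and the cerebellar neuron median -0.57 (5 of 5 below 0). No marker of these lists passed in edgeR, and their part in the protein C list was not tested. F3, tissue factor, was at 58 ± 5.61 in PBS APP-PS1 and 49.7 ± 4.06 CPM in WT mice (0.28, adjusted p = 0.0983 in edgeR and 0.0209 in DESeq2).

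**Figure D5:**
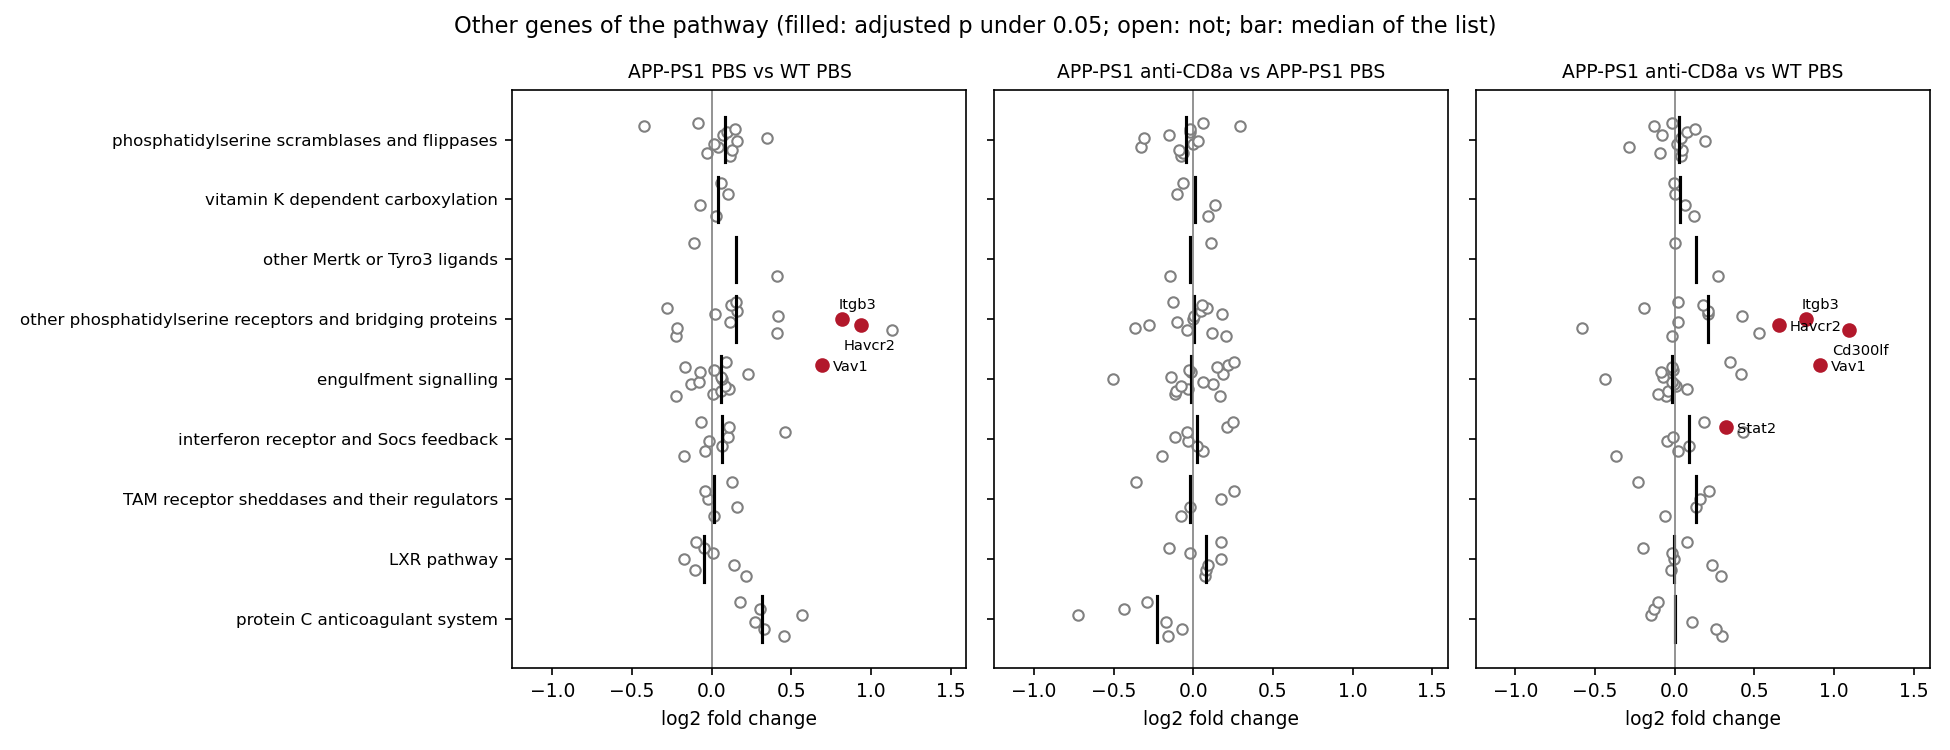
Log2 fold changes of tested genes reported here from 9 pathway lists in the 3 comparisons; filled points have an adjusted p under 0.05, open points do not, and the vertical bar is the median of all tested genes of the list. Filled points are Havcr2, Itgb3 and Vav1 in PBS APP-PS1 over WT mice, these and Cd300lf and Stat2 in anti-CD8a APP-PS1 over WT mice, and none between anti-CD8a and PBS APP-PS1 mice.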

How the data were processed

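Raw counts per gene were deposited by the authors in 1 table (46078 genes, 15 libraries). Reads had been handled with Bowtie2 2.2.2 and HTSeq 0.11.2 on GRCm38, per the submitters' processing notes, which also name FastQC and DESeq2; a stranded poly(A) kit was used, per the labels' protocols. The dissected brain region, annotation release and strand setting are not given in the sources. Bowtie2 does not align across introns, which lowers counts of genes with many short exons, so levels per kilobase are approximate. The 5 HTSeq summary lines were left out; per library 19.966 to 25.854% of reads had no feature and 1.635 to 1.787% were ambiguous.

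CPM, with TMM scaling, were computed here from the counts. edgeR 4.0.16 (R 4.3.3; glmQLFit, glmQLFTest, two-sided) was run on the 18974 genes kept by filterByExpr, in 1 model of the 3 groups plus the sex label over 15 libraries with 11 residual degrees of freedom, with Benjamini-Hochberg adjustment over all genes tested and a threshold of 0.05. Standard errors come from the F statistic, and 95% intervals from the model's degrees of freedom. The microglia ratio was tested by exact permutation over mice. Alternatives were DESeq2 1.42.0, limma-voom (limma 3.58.1), other scalings, filters, covariates and sample subsets. The model was tested on simulated counts. Replicates differed beyond sampling noise in every pair (the smallest chi-square was 7.944 per degree of freedom). The 5 genes and the lists were chosen with earlier results of these data known. Named genes were the 5, the listed genes that passed or else those of smallest p, and the 3 genes most like each of the 5; some genes that these rules take are not reported here.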

Additional observations from a re-analysis of the deposited data

Results flagged for a closer look

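Pros1 in APP-PS1 PBS replicate 1, at 24.5 CPM, lay apart from the other 4 mice of its group, which were at 31 to 32.9 CPM; the gap was 0.774 of the group's range, above Dixon's critical value of 0.71. Of 21 groups of values checked, this was 1, and chance gives about 1 in 20. It is the library with a male label that had the female pattern of Xist and Y-linked genes. Without it, the log2 fold change of Pros1 in PBS APP-PS1 over WT mice was 0.56 (adjusted p = 0.0258 in edgeR), against 0.50 with it.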

How the results depend on the processing

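Over 33 results and 878 alternative values, 754 kept their direction and their side of the threshold, or for counts stayed within 1.5 times. Genes called between PBS APP-PS1 and WT mice numbered 361 with DESeq2, 115 with no sex covariate, 98 without the choroid-rich libraries, 65 and 2 in the animal number series 83 and 85 alone, 86 in labelled females alone and 145 to 253 without each library in turn, against 195. Between anti-CD8a and PBS APP-PS1 mice they were 143 with DESeq2, 13 with no filter, 1 with the 2 groups alone, 1 in labelled females alone and 0 to 3 without each library, against 0. Between anti-CD8a APP-PS1 and WT mice they were 221 with the 2 groups alone, 199 without the choroid-rich libraries, 196 and 1 in series 83 and 85, and 140 (without anti-CD8a replicate 3) to 441 without each library, against 369. Subsets hold fewer mice; the cause of other shifts was not tested. Pros1 in PBS APP-PS1 over WT mice passed with DESeq2 (0.51), DESeq2 size factors (0.51), library totals (0.52), no filter (0.50), at least 1 CPM in 5 libraries (0.51) and the animal number series as covariate (0.52). In the other 8 of 14 alternatives of tool, scaling, filter, covariate and subset it did not pass (adjusted p up to 0.561 in edgeR). Its estimate ran from 0.44 to 0.67 over those 14 and from 0.45 to 0.64 without each library. Axl in anti-CD8a APP-PS1 over WT mice passed with DESeq2 (0.37), with no filter (0.38) and without anti-CD8a replicate 2 (adjusted p = 0.00927 in edgeR), within 0.23 to 0.47; its value over PBS APP-PS1 mice turned to -0.03 in series 85 (-0.01 to 0.17 without each library). Mertk in PBS APP-PS1 over WT mice ran from 0.05 to 0.41 over those 14 alternatives and from 0.20 to 0.41 without each library. It passed only without APP-PS1 PBS replicate 5 (adjusted p = 0.0181 in edgeR). Mertk in anti-CD8a over PBS APP-PS1 mice turned to 0.03 in labelled females; over WT mice it turned to 0.02 with the 2 groups alone, 0.07 in series 83 and 0.09 in labelled females (-0.16 to 0.00 without each library). Gas6 in PBS APP-PS1 over WT mice turned to 0.17 without the choroid-rich libraries and 0.06 both in series 83 and in labelled females (-0.18 to 0.07 without each library). In anti-CD8a APP-PS1 over WT mice it turned to 0.15 without the choroid-rich libraries and to 0.02 in labelled females (-0.24 to 0.01 without each library). For anti-CD8a over PBS APP-PS1 mice Gas6 ran from -0.18 to -0.02 over 15 alternatives and from -0.12 to 0.04 without each library. The Axl ratio between anti-CD8a and PBS APP-PS1 mice was 0.01 with a subset of the markers, and ran from -0.08 to 0.00 without each library. Without each library the Mertk ratio ran from -0.39 to -0.23 for PBS APP-PS1 against WT and from -0.53 to -0.34 for anti-CD8a against PBS APP-PS1 mice. For anti-CD8a APP-PS1 against WT mice it ran from -0.84 to -0.64. In that order it passed in 1, 1 and 2 of 10 such runs (adjusted permutation p from 0.0476 in each up to 0.124, 0.114 and 0.124). In the 5 other alternatives it passed in none (adjusted permutation p from 0.0667 in each up to 0.175, 0.238 and 0.171). Series 85 alone and the lists under all alternatives were chosen after seeing the data. No paired analysis was possible because the labels give no replicate number that the groups share.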
